A study of Mus musculus with 19 samples.

Results

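The let-7 family is a set of short regulatory RNAs (microRNAs, miRNAs) that share the bases with which they find their targets. The family is represented here by its 9 guide strands on a mouse miRNA array, the strands that are loaded into the silencing complex. They were taken by their array names, mmu-let-7a, mmu-let-7b, mmu-let-7c, mmu-let-7d, mmu-let-7e, mmu-let-7f, mmu-let-7g, mmu-let-7i and mmu-miR-98, and are 9 of the 696 miRNAs measured. Livers came from 10-week-old male MutaMouse, a strain that carries a reporter transgene for scoring mutations, so every group carries it. The mice received olive oil alone (control, 0 mg/kg/day) or DB[a,h]A, a polycyclic aromatic hydrocarbon, in olive oil. The low dose was 6.25, the middle dose 12.5 and the high dose 25 mg/kg/day. Gavage was daily for 28 days, and 3 days passed between the final dose and the removal of liver tissue. Each of the 19 arrays held 1 liver, with 5 controls, 5 low dose, 4 middle dose and 5 high dose livers.

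Let-7 miRNAs repress genes that drive growth, among them members of the Ras family and Hmga2. LIN28 proteins bind let-7 precursors and block their maturation, which keeps mature let-7 scarce in embryonic cells, whereas differentiated tissues such as adult liver hold much of it. The guide strands differ from each other by few bases, so their identity rests on the sequence. All 9 matched a mature miRNA in RefSeq (GRCm38.p6), and all 9 have 22 bases. They are printed 5′ to 3′ because the capitals, the seed at bases 2 to 8, are the same GAGGUAG in every member, while the lower-case bases tell the members apart.
mmu-let-7a: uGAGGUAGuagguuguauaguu
mmu-let-7b: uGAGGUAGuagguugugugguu
mmu-let-7c: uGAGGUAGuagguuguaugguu
mmu-let-7d: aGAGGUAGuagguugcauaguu
mmu-let-7e: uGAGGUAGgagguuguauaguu
mmu-let-7f: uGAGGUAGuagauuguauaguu
mmu-let-7g: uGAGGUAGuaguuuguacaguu
mmu-let-7i: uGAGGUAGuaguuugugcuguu
mmu-miR-98: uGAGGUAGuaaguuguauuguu

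With positions counted from 1 at the 5′ end and let-7a as the base named first, let-7c differs by A19G, let-7e by U9G and let-7f by G12A. The let-7b strand differs by A17G and A19G, let-7d by U1A and U16C, let-7g by G12U and U18C, and miR-98 by G11A and A19U. The let-7i strand differs by G12U, A17G, U18C and A19U. Over the 36 pairs of members, 1 to 6 bases differ. Probes for strands this alike may take up some of each other's RNA. How much they did was not tested, so the identity of each signal is uncertain to that extent.

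The 9 strands come from 12 hairpin genes on 7 chromosomes (RefSeq, GRCm38.p6). Mirlet7a-1, Mirlet7f-1 and Mirlet7d lie close together on the minus strand of chromosome 13, at chr13:48538179-48538272, chr13:48537829-48537917 and chr13:48536012-48536114. Mirlet7c-2 and Mirlet7b lie within the long noncoding RNA gene Lncppara on the plus strand of chromosome 15, at chr15:85706603-85706697 and chr15:85707319-85707403. Mirlet7f-2 and Mir98 lie within Huwe1, a ubiquitin ligase gene, on the plus strand of the X chromosome, at chrX:151912346-151912428 and chrX:151913214-151913321. Mirlet7e lies within Spaca6 (chr17:17830352-17830444, plus strand), Mirlet7g within Wdr82 (chr9:106178840-106178927, plus strand) and Mirlet7a-2 within the noncoding gene Mir100hg (chr9:41536716-41536811, plus strand). Mirlet7c-1 (chr16:77599657-77599750, plus strand) and Mirlet7i (chr10:122985640-122985724, minus strand) overlap no other gene of that annotation.

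A level is the log2 of a probe's processed signal after division by the 75th percentile of the same array, taken over the 220 probes detected on all 19 arrays. Each probe binds with its own strength, so levels are compared between livers and not between miRNAs. All 9 guide strands were detected on every array and none was at the lower limit of -4.79. Across the arrays, miR-122, the abundant hepatocyte miRNA, averaged 6.53 ± 0.17 in control livers and was detected on all arrays. The p53-induced miR-34a, named as a check of exposure, was higher than in controls by 1.52 (low), 3.11 (middle) and 3.49 (high dose) on the log2 scale. Array signal was lower at the higher doses: the 75th percentile averaged 357 ± 111 in control, 301 ± 74.6 in low dose, 215 ± 60.7 in middle dose and 195 ± 37.4 signal units in high dose livers (SD). Signals of the labelling spike-ins, RNAs added in a known amount, were lower at the higher doses too. Their log2 means were 12.4, 12.3, 11.9 and 11.5 from control to high dose, with SDs of 0.15 to 0.24. Position on the slide moved with dose too, since 1 control, 1 low dose, 3 middle dose and all 5 high dose arrays lay in the second row of their slide. The part of signal and row in the values below was not tested beyond the fits named with them. The 19 arrays lay on 3 slides that each held all 4 groups, and slide was a block in every test except the alternative named as having no slide block. Replicates are separate mice.

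**Figure D1:**
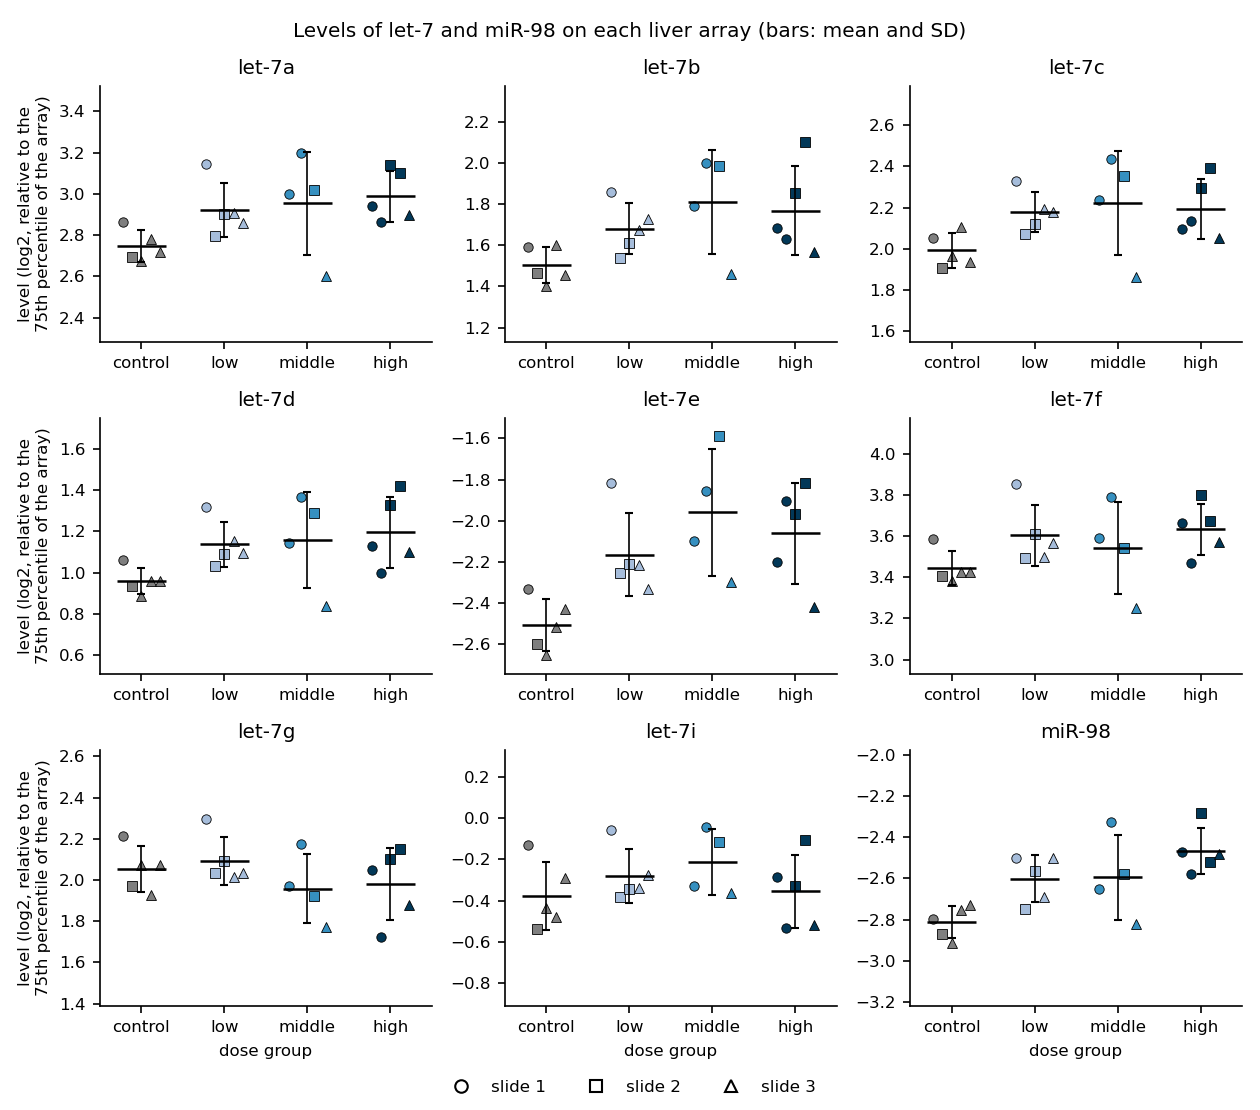
Level of each of the 9 guide strands (log2, over the 75th percentile of its own array) on each of the 19 arrays, by dose group from control to high dose. Symbols give the slide, and bars give the group mean and SD. The let-7e levels of all 5 low dose and all 4 middle dose livers lie above every control, by less than 0.01 at the closest low dose liver, whereas the let-7g groups overlap.

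At single doses, no guide strand passed the test against control (limma, adjusted p under 0.05 over the 208 miRNAs tested, two-sided). At the low dose 0 of 9 passed, where 4.33% of all tested miRNAs did. At the middle dose 0 of 9 passed, where 5.77% of all did. At the high dose 0 of 9 passed, where 2.40% of all did. At an unadjusted p under 0.05 the low dose count was 2 of 9, against 13.5% of all tested miRNAs. The middle dose count was 2 of 9 (25% of all) and the high dose count 2 of 9 (25.5% of all). Differences at the 3 doses lay between -0.15 and 0.46 on the log2 scale, and their 95% intervals lay within 0.788-fold to 1.68-fold of control. The median difference of the 9 was 0.15, 0.15 and 0.18 at the low, middle and high dose. Over the 137 miRNAs detected on all arrays the median was 0.12, 0.16 and 0.12, so the family's median stood within 0.07 of the general shift at each dose.

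When the 3 doses were averaged and set against control, let-7e was the only member that passed. It was 1.29-fold higher in dosed livers (log2 difference 0.36, SE 0.10, 95% interval 1.10 to 1.50-fold, limma adjusted p = 0.0477), and 8.17% of all tested miRNAs passed in that comparison. At an unadjusted p under 0.05 the count was 4 of 9 members, against 24.5% of all tested miRNAs. Its level was -2.33, -2.60, -2.65, -2.52 and -2.43 in the control livers. In the low dose livers it was -1.82, -2.25, -2.21, -2.22 and -2.33. In the middle dose livers it was -2.10, -1.85, -1.59 and -2.30, and in the high dose livers -2.20, -1.90, -1.97, -1.82 and -2.42. Every low and middle dose liver and 4 of 5 high dose livers thus lay above all controls, though the highest control and the lowest low dose liver have the same value at the digits shown. The share of all tested miRNAs with every dosed liver above every control was 3.37% for the low, 4.33% for the middle and 4.81% for the high dose.

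Single doses of let-7e gave differences of 0.29 (SE 0.12, adjusted p = 0.295) at the low, 0.46 (SE 0.13, adjusted p = 0.0708) at the middle and 0.34 (SE 0.13, adjusted p = 0.103) at the high dose, all by limma. Within slides, let-7e averaged higher than the control on the same slide at each dose on 3 of 3 slides. The low dose differences were 0.52, 0.36 and 0.26 on slides 1, 2 and 3, the middle dose differences 0.36, 1.01 and 0.23, and the high dose differences 0.28, 0.70 and 0.12. On slides 1 and 2 a single control array stands behind these values. With the slide row added as a block, the averaged difference was 0.30 and did not pass (limma adjusted p = 0.211). It also did not pass with the percentile over all probes (0.087, adjusted p = 0.796), quantile normalization (0.15, 0.467), no scaling (-0.12, 0.675), the spike-ins (0.29, 0.743), normexp (0.40, 0.581), array signal as a covariate (0.28, 0.285), no filter (0.36, 0.187) or the value table (0.13, 0.174), all by limma. It passed with no slide block (0.44, limma adjusted p = 0.0249), with the mean of the probes (0.35, 0.0279) and by the dimmer probe (0.34, 0.0288). The limma call at the averaged doses was also lost when any of 13 arrays was left out in turn, namely each of the 5 controls, low dose replicates 12, 18 and 24, middle dose replicate 6 and high dose replicates 8, 15, 16 and 23 (difference 0.27 to 0.40 over all 19 such fits, adjusted p 0.0431 to 0.245). Processed signals of let-7e were low, at 62.5 ± 18.8 units in control, 66.8 ± 14.1 in low dose, 54.9 ± 12.3 in middle dose and 46.6 ± 8.37 in high dose livers, so its higher level in dosed livers is relative to arrays whose signal was lower.

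The miR-98 strand, whose hairpin lies within Huwe1, came next. Its levels were -2.79, -2.87, -2.91, -2.75 and -2.73 in control livers and -2.50, -2.75, -2.56, -2.69 and -2.50 in low dose livers. Middle dose livers had -2.65, -2.32, -2.58 and -2.82, and high dose livers -2.47, -2.58, -2.28, -2.52 and -2.48. All 5 high dose livers lay above all controls, while the low and middle dose livers overlapped with them. Processed signals of miR-98 were the lowest of the 9. They were 50.9 ± 16.2 units in control, 49.1 ± 9.20 in low dose, 35.1 ± 6.15 in middle dose and 35.3 ± 6.34 in high dose livers. Its higher level in dosed livers is thus also relative to arrays whose signal was lower. The differences were 0.20 (SE 0.09, adjusted p = 0.282), 0.19 (SE 0.09, adjusted p = 0.202) and 0.32 (SE 0.09, adjusted p = 0.067) at the low, middle and high dose, and 0.24 (SE 0.07, adjusted p = 0.0592) over the averaged doses, by limma. None passed, although leaving out middle dose replicate 6 or 20 gave the high dose an adjusted p of 0.0318 at the lowest. Along dose, miR-98 changed by 0.0113 log2 units per mg/kg/day (SE 0.0034, limma adjusted p = 0.0775). In that trend test 0 of 9 members passed, where 0.962% of all did, and 1 of 9 had an unadjusted p under 0.05, as did 23.1% of all.

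**Figure D2:**
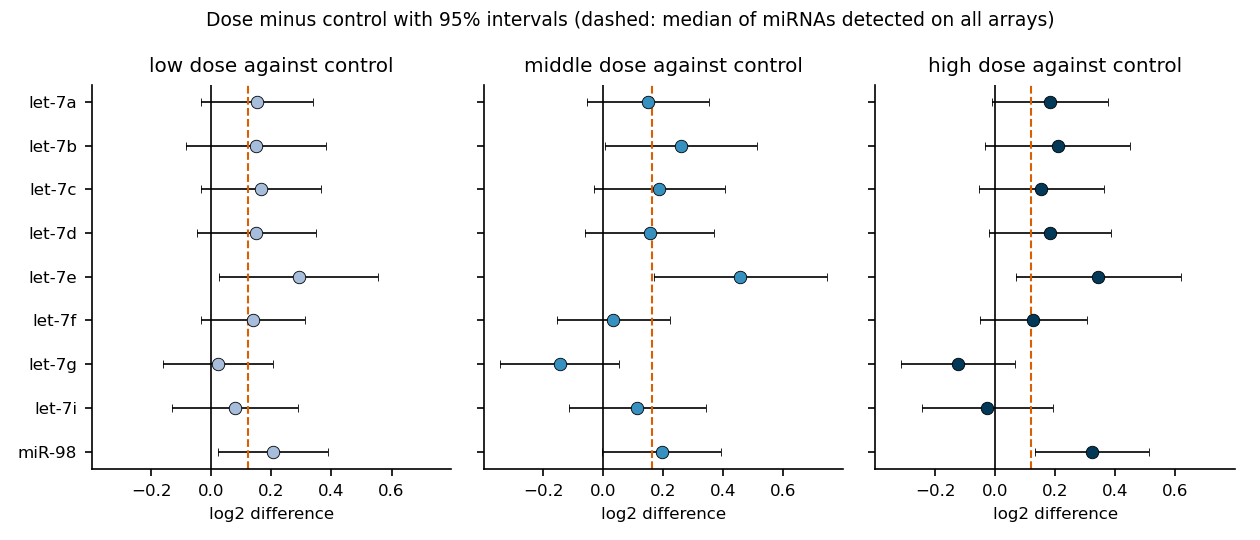
Log2 difference from control of each guide strand at the low, middle and high dose, with 95% intervals from limma; the dashed line is the median of the 137 miRNAs detected on all arrays (0.12, 0.16 and 0.12). The let-7e and miR-98 points lie right of the dashed line at every dose, and the let-7g points lie left of it.

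Let-7a, let-7b, let-7c, let-7d and let-7f had slightly higher mean levels in dosed livers and no call at any dose. Let-7a had 2.86, 2.69, 2.68, 2.78 and 2.72 in control livers and 3.14, 2.80, 2.90, 2.91 and 2.86 in low dose livers. It had 3.00, 3.20, 3.02 and 2.60 in middle dose livers and 2.94, 2.86, 3.14, 3.10 and 2.90 in high dose livers. Every high dose liver lay above all controls, by less than 0.01 at the closest pair, and the other doses overlapped with control. The let-7a differences were 0.15, 0.15 and 0.18 (SE 0.09 each, limma adjusted p = 0.561, 0.334 and 0.231). Let-7b differed by 0.15, 0.26 and 0.21 and let-7c by 0.17, 0.19 and 0.15 in the order low, middle and high dose. For let-7d the differences were 0.15, 0.15 and 0.18, and for let-7f they were 0.14, 0.03 and 0.13. The smallest adjusted p among these 4 strands was 0.191, for let-7b at the middle dose. Middle dose replicate 20, on slide 3, held the lowest level of its group for all 9 strands and lay below every control for let-7a, let-7c, let-7d, let-7f and let-7g. Without that array, the middle dose differences were 0.27 for let-7a, 0.39 for let-7b, 0.33 for let-7c, 0.27 for let-7d and 0.12 for let-7f. Without middle dose replicate 6 they were 0.09 for let-7a, 0.10 for let-7d and -0.02 for let-7f. Without replicate 20, let-7c and miR-98 also passed over the averaged doses, giving 3 members of 9. The share of all tested miRNAs that passed without that array is not given, so this count is no result about the family.

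Let-7g had no higher mean than control at the middle and high doses, unlike most members. Its levels were 2.21, 1.97, 2.07, 1.93 and 2.07 in control livers and 2.30, 2.03, 2.09, 2.01 and 2.03 in low dose livers. Middle dose livers had 1.97, 2.17, 1.92 and 1.77, and high dose livers 2.05, 1.72, 2.10, 2.15 and 1.88. The groups overlapped at every dose. Against control, the differences were 0.02, -0.15 and -0.12 (SE 0.09 each, limma adjusted p = 1, 0.334 and 0.434). All 4 middle dose livers lay under the control mean of their own slide, as did 3 of 5 high dose livers. The high dose difference was -0.04 without high dose replicate 8 and -0.18 without control replicate 10. Let-7i, which shares G12U and U18C with let-7g, differed by 0.08, 0.11 and -0.03 (limma adjusted p = 0.893, 0.534 and 1).

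A member's level can also be read against the mean of the 9 on the same array, a difference in which most scalings of the whole array cancel. That mean was 0.78 ± 0.08 in control, 0.95 ± 0.12 in low dose, 0.99 ± 0.21 in middle dose and 0.99 ± 0.14 in high dose livers (SD). Let-7g stood above it by 1.31, 1.26, 1.36, 1.14 and 1.28 in control livers and by 1.14, 1.19, 1.17, 1.10 and 1.11 in low dose livers. The excess was 1.01, 0.98, 0.83 and 1.07 in middle dose livers and 1.09, 0.86, 1.00, 1.00 and 1.03 in high dose livers. Relative to its family, let-7g was thus below all controls in 3 of 5 low dose, 4 of 4 middle dose and 5 of 5 high dose livers. The slide-adjusted differences were -0.13, -0.30 and -0.28, given as a description with no test because the member was singled out after its values were seen. For relative levels, the share of all tested miRNAs below every control was not computed. The counts of let-7g livers below all controls are therefore descriptions too. Under quantile normalization, let-7i and not let-7g was the lowest member at all 3 doses.

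Relative to the same mean, let-7e differed in the other direction, by 0.14, 0.30 and 0.19, and was above all controls in 4 of 5 low dose, 4 of 4 middle dose and 4 of 5 high dose livers. The miR-98 values were 0.05, 0.04 and 0.17, with 4 of 5 high dose livers above all controls. In the series' own value table, the sign of the relative difference at the high dose turned for let-7e (-0.06) and miR-98 (-0.08) and stayed negative for let-7g (-0.18). Let-7i was lower relative to the mean by 0.07, 0.04 and 0.18 in the order low, middle and high dose, with 4 of 5 high dose livers below all controls. Let-7a, let-7c and let-7d stayed within 0.04 of the control difference from the mean at all 3 doses. Let-7f differed by -0.01, -0.12 and -0.03, with 4 of 4 middle dose livers below all controls. Let-7b differed by -0.00, 0.10 and 0.06, with 2 of 4 middle dose livers above all controls. Under the alternatives that kept every array, 37 relative differences moved by at least the member's SD within groups and 287 did not. Where an array was divided by another factor or by none, or the filter was left out, they could not move. The 287 are thus no measure of stability. A ratio within an array shows unequal change and does not show which member changed. No share over all miRNAs was computed for relative levels, so the counts of livers outside the controls are no result about the members.

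**Figure D3:**
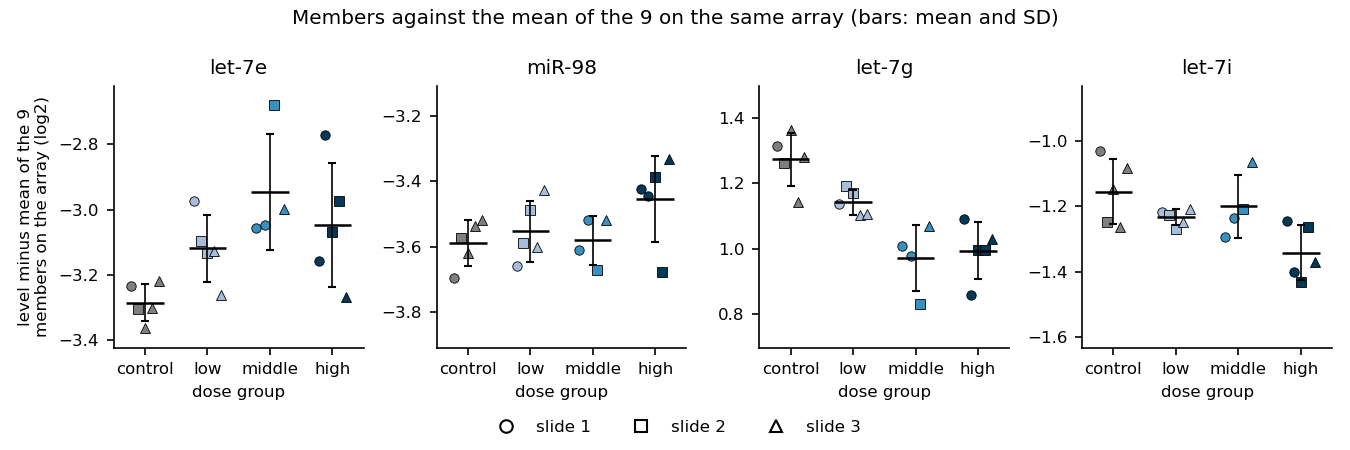
Level of let-7e, miR-98, let-7g and let-7i minus the mean of the 9 guide strands on the same array (log2), by dose group; symbols give the slide and bars the mean and SD. The let-7g values of all 4 middle dose and all 5 high dose livers lie below every control, and the let-7e values of all 4 middle dose livers lie above every control. No share over all miRNAs was computed for such relative levels.

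No member passed between doses. In the comparison of the middle with the low dose, 0 of 9 members passed (0.481% of all), and at an unadjusted p under 0.05 the count was also 0 (8.65% of all). The high against the low dose gave 0 of 9 (0.481% of all) and 0 at an unadjusted p under 0.05 (18.3% of all). The high against the middle dose gave 0 of 9 (0% of all) and again 0 at an unadjusted p under 0.05 (6.73% of all). The lowest unadjusted p among the 27 member contrasts between doses was that of let-7g in the middle against the low dose (-0.17, 95% interval -0.36 to 0.03, limma adjusted p = 0.456). A test for any difference among the 4 groups passed for 0 of 9 members (0.962% of all), with limma adjusted p = 0.127 for miR-98 and 0.149 for let-7e.

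How the arrays were scaled set the sign of most differences. With the 75th percentile taken over all probes, the median difference of the 9 was 0.07, -0.33 and -0.08 at the low, middle and high dose, against 0.05, -0.31 and -0.14 for the 137 miRNAs on all arrays. With no scaling it was -0.03, -0.42 and -0.52, against -0.05, -0.40 and -0.58. With the labelling spike-ins, RNAs added in a known amount, as the scale it was 0.08, -0.05 and 0.25, against 0.05, -0.03 and 0.19. With quantile normalization it was 0.09, 0.05 and 0.15, against 0.00, -0.02 and 0.00 for the same miRNAs. In these 4 scalings and in the percentile over detected probes, the family's median stayed within 0.16 of the median of the miRNAs on all arrays. Quantile normalization aside, this gap could hardly change, because dividing an array by a factor moves members and other miRNAs alike. The family's median stood further off under 2 other treatments of the arrays, with normexp at the middle dose, where it was -0.05 against 0.39, and in the value table at the high dose, where it was 0.21 against 0.02. Let-7g was the lowest member and let-7e the highest at all 3 doses in each of the 5 scalings above except quantile normalization, where let-7i was lowest and let-7d, let-7b and let-7d were highest at the low, middle and high dose. Only quantile normalization could change this order, because the others shift all members on an array by the same amount. The same order under those others is therefore no sign of stability.

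**Figure D4:**
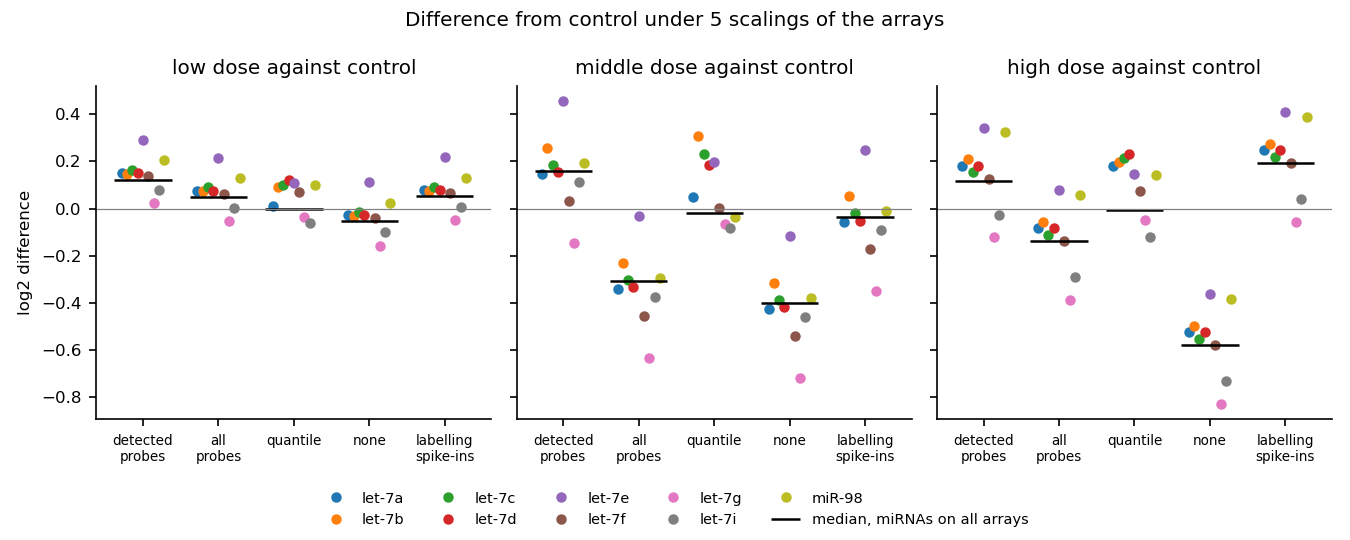
Log2 difference from control of the 9 guide strands (points) under 5 scalings of the arrays, at the low, middle and high dose; the black lines give the median of the 137 miRNAs detected on all arrays. The whole set of points follows the black line from scaling to scaling, to -0.52 as the members' median at the high dose with no scaling. Except under quantile normalization this follows from the scaling itself, which moves members and other miRNAs on an array alike.

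Each strand was read by 2 probes of 10 spots each, and the brighter probe gave the values above. The correlation of the probes over 19 arrays ran from 0.729 for let-7i to 0.962 for miR-98, as a description. By the dimmer probe, an alternative chosen after seeing the data, let-7e differed by 0.28, 0.44 and 0.31 in the order low, middle and high dose and passed at the middle dose (limma adjusted p = 0.0305). For miR-98 the dimmer probe gave 0.22, 0.27 and 0.38 and passed at the high dose (limma adjusted p = 0.0402). The dimmer let-7g probe gave 0.06, -0.14 and -0.10, with no call.

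The strands varied together from liver to liver. After removal of slide means, Pearson's r over the 19 arrays ran from -0.0578 for let-7e with let-7g to 0.974 for let-7a with let-7d, with a median of 0.678 over the 36 pairs. Pairs that differ by 1 base had a median r of 0.915 (4 pairs), pairs that differ by 2 bases 0.712 (10 pairs), by 3 bases 0.674 (11 pairs) and by 4 bases 0.525 (9 pairs). The 1 pair with 5 differing bases had 0.565 and the 1 pair with 6 had 0.681. These classes overlapped widely. Values ran from 0.690 to 0.947 at 1 base and from 0.413 to 0.974 at 2 bases. They ran from -0.0578 to 0.923 at 3 bases and from 0.149 to 0.924 at 4 bases. Let-7g had the lowest median, 0.360 over its 8 pairs, and let-7a the highest, 0.857. All values on an array share its labelling, depth of signal and scaling, and the groups were not removed, so these correlations are descriptions.

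**Figure D5:**
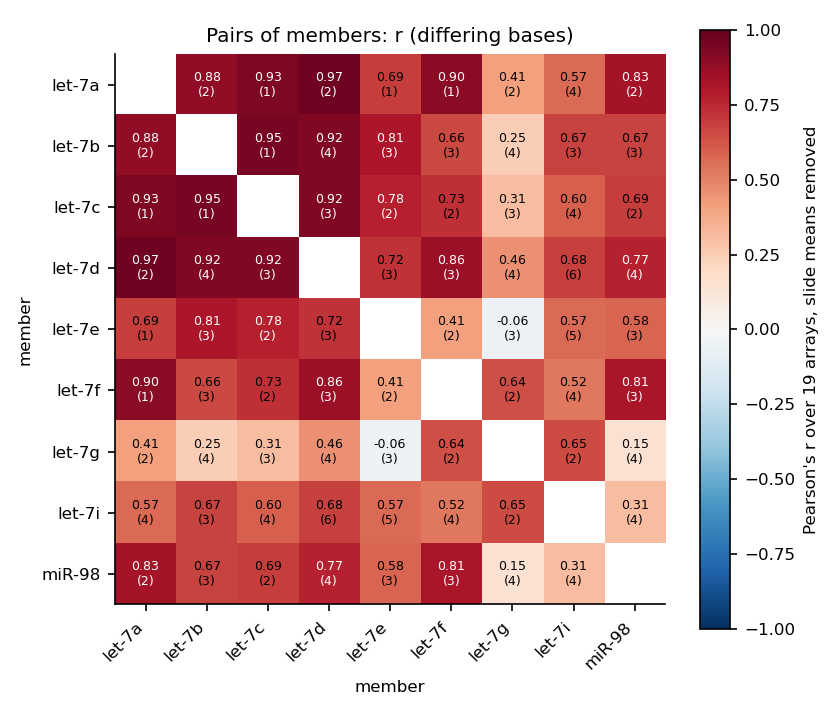
Pearson's r between the levels of each pair of guide strands over the 19 arrays after removal of slide means, with the number of differing bases in brackets. Let-7a, let-7b, let-7c and let-7d form a block with r of 0.88 and above, and the let-7g row is the palest, down to -0.06 with let-7e.

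Outside the family, the 5 miRNAs whose levels were most like the mean of the 9, out of 128 detected on all arrays, were miR-223, miR-28, miR-15b, miR-151-5p and miR-92a. Their r over the 19 arrays with slide means removed was 0.806, 0.796, 0.765, 0.761 and 0.760. Of the hepatocyte markers, miR-122 ranked 7 with 0.755, miR-192 had 0.659, miR-148a 0.230 and miR-194 0.0587. The leukocyte marker miR-142-3p had 0.370 and the endothelium marker miR-126-3p 0.430. The myeloid miRNA miR-223 passed at each dose, with differences of 0.37, 0.48 and 0.39 (limma adjusted p = 0.0382, 0.0198 and 0.0482). It is on a list of 5 leukocyte markers, of which 3 were tested and 1 passed at each dose, while miR-150 and miR-155 were detected on no array. The summed level of that list, on the linear scale, was 0.974 to 1.30 in control, 1.30 to 1.40 in low dose, 1.16 to 1.49 in middle dose and 1.10 to 1.53 in high dose livers. The 5 bile duct epithelium markers summed to 0.213 to 0.362 in control, 0.245 to 1.40 in low dose, 0.225 to 1.06 in middle dose and 0.224 to 2.79 in high dose livers, and none passed. Of the endothelium markers 2 were tested and 1 passed at the low dose, miR-126-3p, with differences of 0.29, 0.16 and 0.08 (limma adjusted p = 0.0268, 0.191 and 0.528). Their summed level was 2.09 to 2.86 in control, 3.00 to 3.26 in low dose, 2.67 to 3.01 in middle dose and 2.54 to 2.89 in high dose livers, so every low dose liver lay above every control. Of all tested miRNAs, 3.37% did the same at that dose. The sum is mostly that of miR-126-3p, because miR-126-5p lay near the lower limit (-4.78 in control livers). The miR-126-5p differences were 0.05, -0.0013 and -0.0093. Of the tested markers of hepatocytes (4), erythroid cells (2), stellate and smooth muscle (4) and pancreas and muscle (1), 0 passed at any dose. Median differences at the low, middle and high dose were 0.06, -0.04 and -0.02 for hepatocyte and 0.07, -0.11 and -0.31 for erythroid markers. For stellate and smooth muscle markers they were 0.15, 0.34 and -0.04, and for miR-1, of muscle, 0.30, 0.74 and -0.45. The part of other cells in the let-7 values was not tested, and in bulk liver a change in the number of cells of a type and in the RNA per cell cannot be told apart.

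Other products of the let-7 loci gave no call. Of 7 passenger strands on the array, the arms opposite the guides, 4 were tested, 0 passed at any dose and 3 (let-7c-1*, let-7g* and let-7i*) were detected on no array. Let-7b* averaged -4.05 ± 0.48 in control, -3.82 ± 0.25 in low dose, -3.26 ± 0.25 in middle dose and -3.18 ± 0.33 in high dose livers (SD). Its differences were 0.20, 0.69 and 0.78 (limma adjusted p = 0.859, 0.102 and 0.0778). Let-7f-1* was close to it, with 0.20, 0.66 and 0.75 (limma adjusted p = 0.876, 0.111 and 0.0859). Such differences were not particular to let-7 loci. Outside the family, miR-877* had 0.14, 0.70 and 0.73 and miR-92b 0.25, 0.68 and 0.74. Others went the other way, such as miR-101b with -0.11, -0.30 and -0.29. Let-7b* and let-7f-1* lie near the lower limit of -4.79, where let-7a-1* sat on all arrays and let-7d* on all control and low dose arrays.

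Some let-7 hairpins are made with members of the miR-99/100 and miR-125 families from the same loci. Of the 5 partners listed, 4 were tested and 0 passed at any dose. The miR-99a strand differed by -0.02, -0.10 and -0.19, miR-100 by 0.20, 0.09 and -0.10, and miR-125b-5p by 0.08, 0.19 and 0.03 in the order low, middle and high dose. The miR-125a-5p level lay near the lower limit, and miR-99b, from the Mirlet7e locus, was detected on 1 array. The array also holds miR-1961, which has the same bases 2 to 8 as let-7 and was detected on 0 arrays. The related miR-202-3p differed by 0.14, 0.06 and 0.05 and did not pass.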

How the data were processed

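Each array was hybridised with 100 ng of total liver RNA labelled with Cy3. Per the file headers, spots were read with Agilent Feature Extraction 10.7.3.1 and the authors deposited processed signal intensities, with background subtracted and no scaling between arrays. The authors also deposited a value table on a log2 scale, with 692 rows and column medians of 5.04 to 5.06; its centring and scaling are not given in the sources used here, and it served as an alternative (187 of the 208 tested miRNAs).

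Here, outlier and control spots were left out, the spots of a probe averaged (0 saturated), and each array scaled to the 75th percentile of the 220 probes that every array detected, where detected means over 50% of its spots well above background. Signals were floored at -4.79 (log2), and the brightest of a miRNA's probes was used. A miRNA was tested if the software called it detected on at least 4 arrays, which held for 208 of 696. Differences were tested with limma 3.58.1 (R 4.3.3), lmFit and eBayes, over all 4 groups with slide as a block, two-sided, with Benjamini-Hochberg adjustment over the 208 and a threshold of 0.05. The procedure was tested on simulated data. All 9 members are named. Alternatives were other scalings, normexp background correction (offset 50, on median in place of mean spot signals), other blocks, array signal as a covariate, no filter, other probes, the value table and leaving out each array. The number of arrays limits the precision. The members, the lists and the tests were chosen with earlier results of these data known.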

Additional observations from a re-analysis of the deposited data

Results flagged for a closer look

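Of the 36 groups formed by a member and a dose group, 3 held an array far from the rest of its group by Dixon's test, and chance gives about 1 in 20 such groups. Low dose replicate 3 had the highest let-7e level of its group, -1.82 (log2), and the highest let-7g level, 2.30. Control replicate 1 had the highest let-7f level of its group, 3.58. Both arrays lay on slide 1, where the low dose and the control group had 1 array each.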

How the results depend on the processing

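At the low dose, 0 members passed under every alternative run. The middle dose count was 1 with the percentile over all probes (let-7g, lower), with no slide block, with the mean of the probes and by the dimmer probe (let-7e, higher), and 0 to 1 when an array was left out. The high dose count was 7, all lower, with no scaling, 2 in the value table (let-7a and let-7f), 1 with no slide block, the mean of the probes or the dimmer probe (miR-98), and 0 to 1 when an array was left out. With no scaling, the median over the miRNAs on all arrays was lower too at the high dose, at -0.58 against -0.52 for the members. Over the averaged doses the count was 2 with no slide block, the mean of the probes or the dimmer probe (let-7e and miR-98). It was 0 with the percentile over all probes, quantile normalization, no scaling, the spike-ins, normexp, slide and row blocks, array signal as a covariate, no filter and the value table. It was 0 to 3 when an array was left out. Under the alternatives that kept every array, 1 to 23 of all miRNAs passed over the averaged doses, against 17. The trend count was 7, all lower, with no scaling, 1 with no slide block, 3 in the value table, and 0 to 1 without single arrays. With the percentile over all probes 2 members, let-7f and let-7g, were lower in the middle than in the low dose. Apart from the averaged doses with every array kept, shares of all tested miRNAs are not given beside these counts. Counts without such a share are no result about the members. The cause of these shifts was not tested, except that fewer arrays or more miRNAs entered some fits by construction.

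Signs turned as follows, mostly for differences that had not passed. With no scaling, the low dose differences of let-7a, 7b, 7c, 7d, 7f, 7g and 7i were -0.027, -0.031, -0.014, -0.029, -0.041, -0.16 and -0.10. The middle dose differences of let-7a to 7f, 7i and miR-98 were -0.43, -0.32, -0.39, -0.42, -0.12, -0.54, -0.46 and -0.38, and the high dose ones of let-7a to 7f and miR-98 were -0.52, -0.50, -0.55, -0.52, -0.36, -0.58 and -0.38. Over the averaged doses let-7e was then -0.12 and miR-98 -0.25. With the percentile over all probes, let-7g was -0.054 at the low dose, let-7a to 7f, 7i and miR-98 were -0.34, -0.23, -0.30, -0.33, -0.033, -0.46, -0.38 and -0.29 at the middle dose, let-7a to 7d and 7f were -0.083, -0.057, -0.11, -0.083 and -0.14 at the high dose, and miR-98 was -0.036 over the averaged doses. With the spike-ins, let-7g was -0.051 at the low dose, let-7a, 7c, 7d, 7f, 7i and miR-98 were -0.059, -0.020, -0.052, -0.17, -0.093 and -0.012 at the middle dose, and let-7i was 0.039 at the high dose. With quantile normalization, let-7g and 7i were -0.035 and -0.062 at the low dose, and let-7i and miR-98 -0.083 and -0.037 at the middle dose. With normexp, let-7a, 7c, 7d and 7f were -0.10, -0.084, -0.046 and -0.21 at the middle dose and let-7i 0.0087 at the high dose. With array signal as a covariate, let-7g was -0.0082 at the low dose, let-7f and 7i -0.085 and -0.0093 at the middle dose, and let-7b, 7c, 7d and 7f -0.047, -0.041, -0.0052 and -0.019 at the high dose. With slide and row blocks let-7f was -0.029 at the middle dose. In the value table let-7g and 7i were -0.022 and -0.0018 at the low dose and let-7i -0.0071 at the middle dose. At the high dose let-7i was 0.020 with no slide block, 0.0047 with the mean of the probes and 0.035 by the dimmer probe. Without single arrays, let-7f at the middle dose ran from -0.021 to 0.12, let-7g at the low dose from -0.030 to 0.043, and let-7i from -1.3e-05 to 0.13 at the low and from -0.11 to 0.035 at the high dose. No paired analysis was possible because the replicate numbers are unique to each mouse and shared by no groups.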
